A study of Mus musculus with 2 samples.

Results

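Genes that modify or remodel chromatin were described in DNase-seq maps of open chromatin from whole mouse embryos. The set held the protein-coding genes of the GENCODE M21 annotation whose symbols begin with Kmt, Setd, Kdm, Hdac, Smarc or Dnmt, or with Chd and a number, together with Ezh1, Ezh2, Eed and Suz12. These rules gave 79 of 21938 protein-coding genes, in 8 families: 8 Kmt, 10 Setd, 4 genes of the core of Polycomb repressive complex 2 (PRC2), 18 Kdm, 11 Hdac, 13 Smarc, 10 Chd and 5 Dnmt genes. The samples were 2 biological replicates of whole embryos of the strain B6NCrl at embryonic day 10.5, with no transgene, mutation or treatment named in the labels, males and females pooled. Both replicates form 1 group, so there was no condition to contrast, and values are given for both replicates and the main counts and medians stand beside the same over all protein-coding genes. In DNase-seq the enzyme DNase I cuts DNA where nucleosomes are displaced, and a pile-up of cuts is called as a peak, here always 150 bp wide. Replicate 1 had 207946 peaks on nuclear chromosomes and replicate 2 had 229568, and 152116 could be paired one to one between them. Each peak carries a whole-number score from the authors, here called its strength. The median strength was 41 for the peaks of replicate 1 and 50 for those of replicate 2. Its definition is not given in the sources used here, it never passed 149 on nuclear chromosomes, and the read depth behind it is unknown, so strengths rank sites and are not amounts.

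Chromatin is regulated by enzymes that write and erase marks on histones and DNA and by motors that move nucleosomes. Kmt and Setd proteins and PRC2 put methyl groups on histone lysines, Kdm proteins take them off, and Hdac proteins remove acetyl groups. Smarc and Chd proteins are the motors and partner subunits of ATP-driven remodeling complexes, and Dnmt proteins methylate cytosines in CpG dinucleotides. Most of these genes are known as broadly expressed genes with CpG-rich promoters, and loss of many of them disturbs development of the embryo.

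The labelled tissue was checked against marker genes. Open here means that each replicate had a peak no more than 1 kb from an annotated transcription start site (TSS) of the gene. All 11 markers of neural tube, neural crest, heart, somite and limb were open, as were Foxa2 and Hhex of the liver bud and Kdr of endothelium. Cdh5 of endothelium and Klf1 of primitive red cells had a peak in replicate 1 alone, of strength 43 and 37, and Gata1 had none. The 7 markers of trophoblast, decidua, lymphocytes and hepatocytes had none in either replicate. In a whole embryo, a weak peak from many cells and a strong peak from few cells cannot be told apart.

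The sequences that carried the strongest open promoters are shown first, chosen as the strongest and not as typical promoters. For each family the strongest promoter peak shared by both replicates at its strongest member is given, on the gene's strand, 5′ to 3′, read from the mm10 genome. The peak given for Setd5 lay 700 bp from its nearest TSS. Capitals mark matches to short motifs that general promoter factors are known to bind: CCAAT (NFY), GGGCGG (SP/KLF) or their reverse complements. The peaks lay at chr7:4739916-4740065 for Kmt5c, chr6:113076516-113076665 for Setd5, chr6:47595056-47595205 for Ezh2, chr4:118180036-118180185 for Kdm4a, chr1:92180436-92180585 for Hdac4, chr9:21615956-21616105 for Smarca4 and chr14:52257796-52257945 for Chd8.
Kmt5c: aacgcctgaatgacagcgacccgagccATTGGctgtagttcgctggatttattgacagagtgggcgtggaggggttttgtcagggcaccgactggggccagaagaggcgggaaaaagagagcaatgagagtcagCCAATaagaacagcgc
Setd5: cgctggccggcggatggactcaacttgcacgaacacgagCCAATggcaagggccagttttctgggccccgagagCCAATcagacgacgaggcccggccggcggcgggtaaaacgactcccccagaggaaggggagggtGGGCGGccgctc
Ezh2: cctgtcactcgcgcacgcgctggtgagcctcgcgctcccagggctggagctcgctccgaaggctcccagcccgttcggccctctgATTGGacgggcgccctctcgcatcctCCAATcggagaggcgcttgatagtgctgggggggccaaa
Kdm4a: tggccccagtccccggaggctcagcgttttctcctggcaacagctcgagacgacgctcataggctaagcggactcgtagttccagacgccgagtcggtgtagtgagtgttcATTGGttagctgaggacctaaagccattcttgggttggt
Hdac4: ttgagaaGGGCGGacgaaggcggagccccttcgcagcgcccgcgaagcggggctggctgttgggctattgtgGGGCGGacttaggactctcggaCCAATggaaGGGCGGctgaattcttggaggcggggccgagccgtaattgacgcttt
Smarca4: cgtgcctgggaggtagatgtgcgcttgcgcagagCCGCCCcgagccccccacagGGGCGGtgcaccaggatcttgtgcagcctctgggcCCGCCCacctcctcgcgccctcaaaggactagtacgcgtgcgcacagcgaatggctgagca
Chd8: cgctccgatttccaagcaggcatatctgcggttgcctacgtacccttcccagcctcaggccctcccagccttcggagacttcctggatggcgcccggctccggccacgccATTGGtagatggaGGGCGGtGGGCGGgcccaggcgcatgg
Their GC content ran from 55.3% in Kmt5c to 68.7% in Ezh2 and Smarca4, and their number of CpG dinucleotides from 8 in Kmt5c to 15 in Setd5, Ezh2 and Hdac4. CCAAT letters stood in 6 of the 7, with 2 matches each in Kmt5c, Setd5 and Ezh2, and GGGCGG letters stood in 4, with 3 matches each in Hdac4 and Smarca4. The strongest Dnmt promoter, that of Dnmt1 at chr9:20952856-20953005, is not printed because 124 of its 150 bases are annotated as untranslated exon. It held 2 overlapping matches to the NRF1 letters GCGCATGCG.

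Across the strongest promoter peaks of the 78 open members, the same motifs and 8 others were counted beside 13909 such peaks of all open genes. Each motif was searched on both strands, and matches to different motifs may overlap. GGGCGG was found in 41 of 78 peaks (52.6%, against 52.2% of all promoter peaks) and CCAAT in 30 (38.5%, against 29.5%). The CTCF letters AGGNGGC stood in 19 (24.4%, against 28.7%) and the ETS letters CCGGAAG in 11 (14.1%, against 11.8%). The E-box CACGTG stood in 5 (6.41%, against 6.79%) and the NRF1 letters in 3 (3.85%, against 2.45%). CRE letters (TGACGTCA) and ZBTB33 letters (TCGCGAG) stood in 2 peaks each, against 2.80% and 2.50% of all, and the YY1 letters AAGATGGCG in 1, against 1.33%. The TATA letters TATAAA were in none of the 78, against 2.26% of all. The median GC content was 66.3% in the members' peaks and 64.7% in all. By family, CCAAT stood in 6 of 11 Hdac peaks and 5 of 10 Setd peaks but in 2 of 13 Smarc peaks and none of the 4 Dnmt peaks, numbers too small to rank the families.

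Of the 79 genes, 78 were open in both replicates (98.7%), beside 69.7% of all protein-coding genes. The exception was Dnmt3c, a rodent gene known for silencing retrotransposons in the male germ line. Each of the other 7 families was open in full. Strength at the strongest promoter peak had a median over all 79 of 117 in replicate 1 and 124 in replicate 2, beside 88 and 100 over all protein-coding genes, where a gene without a peak ranks lowest. Among open genes alone the gap was narrower, with medians of 117 and 124 for members and 109 and 118 for all.

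Strengths of the replicates ranked the open members alike (Spearman rho 0.92 over 78 genes, 0.95 over all 15300 open genes, given as a description). Replicate 2 was the higher in 59 members, the lower in 11 and equal in 8 (higher in 75.6%, beside 83.3% of all open genes), with a median difference of 6 beside 8 over all open genes. In 67 of the 78 the strongest peaks of the replicates overlapped, and in 11, among them Kmt2a, Smarca2 and Dnmt3b, the strongest peak was a different one in each replicate. This overlap was not counted over all open genes.

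**Figure D1:**
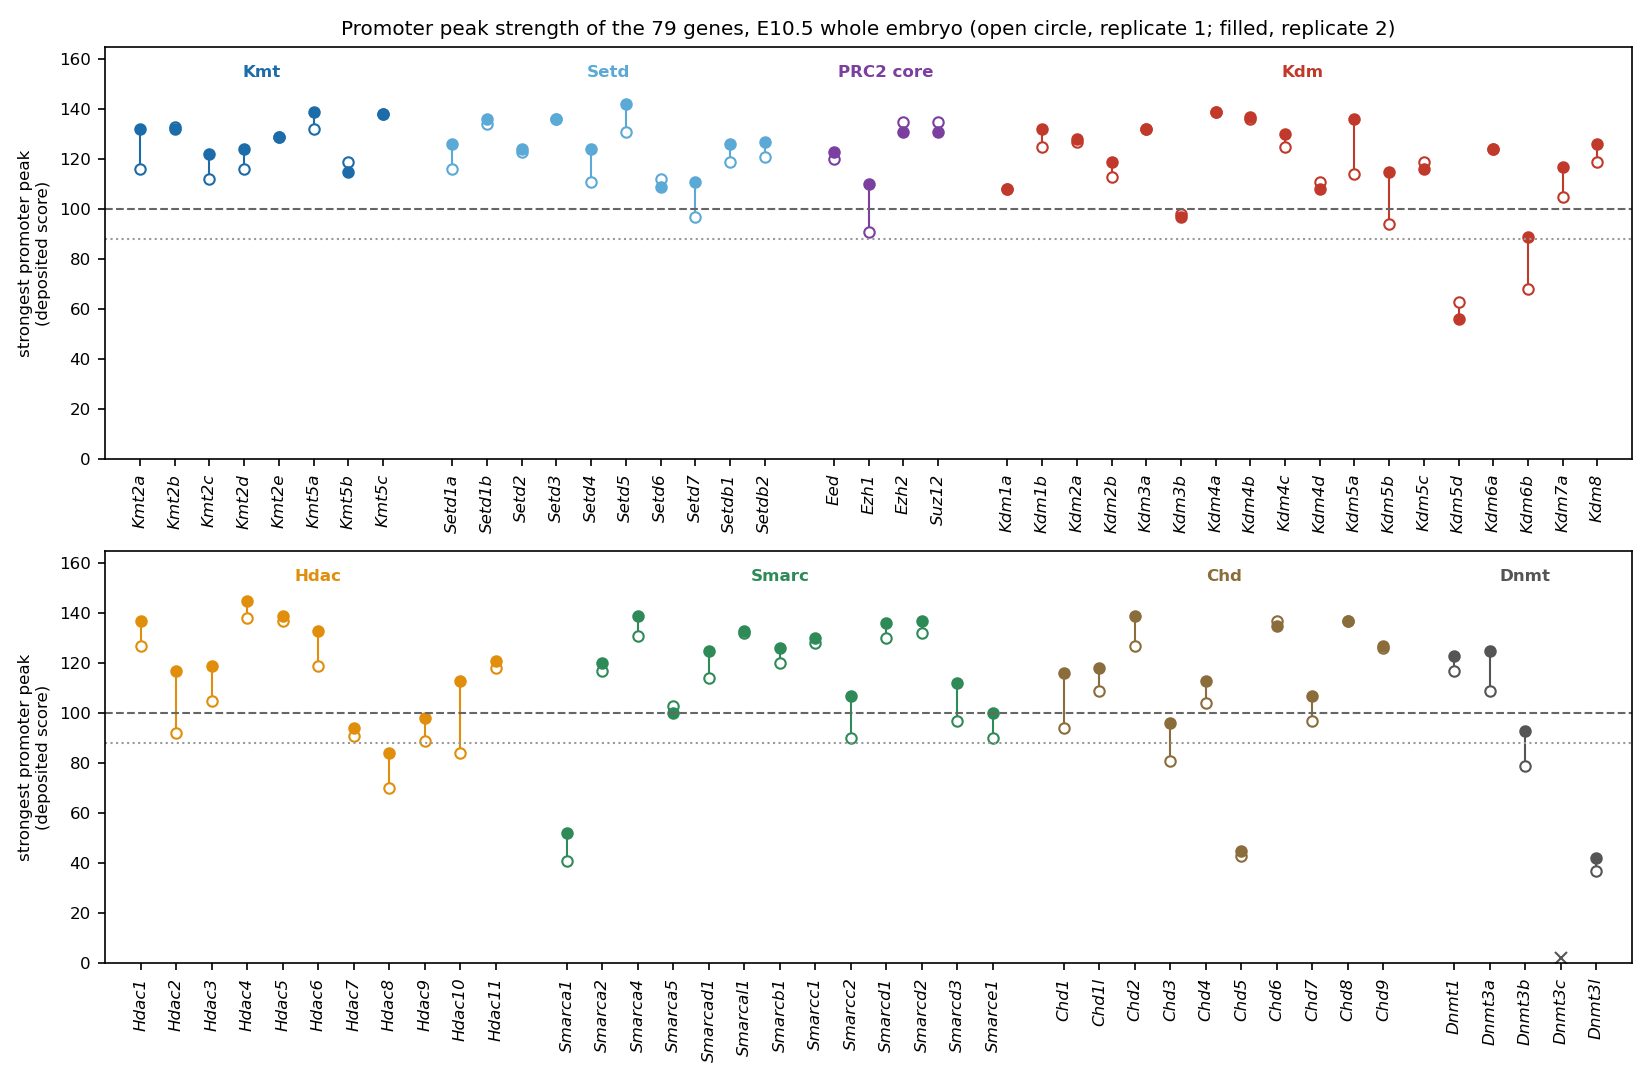
Strength of the strongest peak within 1 kb of a TSS (deposited score, vertical axis) for each of the 79 genes by family. Open circles are replicate 1 and filled circles replicate 2; the dotted and dashed lines are the medians over all protein-coding genes, 88 and 100, and the cross is Dnmt3c, which had no peak. Most genes sit above both lines, and Smarca1, Chd5, Dnmt3l and Kdm5d sit far below them.

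Most histone methyltransferases had strong promoters: of the 22 Kmt, Setd and PRC2 genes, those with a mean below the median of all open genes were Ezh1, Setd7 and Setd6. The 8 Kmt genes ran from a mean of 117 to 138, with a median of 126.5, beside 113.5 over all open protein-coding genes. All 8 were CpG-rich, as defined below, and the median over all open CpG-rich genes was 119.5. Kmt5c, which adds the second and later methyl groups to lysine 20 of histone H4, had 138 in both replicates. Kmt5a, which places the first methyl group on the same lysine, had 132 and 139, and Kmt2b, a trimethylase of lysine 4 of histone H3, had 133 and 132. The lowest Kmt values were those of Kmt5b (119 and 115) and Kmt2c (112 and 122), with means of 117 each. Kmt2d (116 and 124) and Kmt2e (129 and 129) depended on the window: within 500 bp of a TSS their means were 68 and 112, in place of 120 and 129.

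The 10 Setd genes, named for the catalytic SET domain, ran from 104 to 136.5 with a median of 123. Setd5 had 131 and 142, Setd3, which is known to methylate actin rather than histones, had 136 and 136, and Setd1b, another methylase of lysine 4 of histone H3, had 134 and 136. Within 500 bp of a TSS the mean of Setd1b was 92, in place of 135. That of Setd5 was 127.5, in place of 136.5, and so below the 136 of Setd3 in that window. Setd2, the trimethylase of lysine 36 of histone H3, had 123 and 124, and Setdb1, which methylates lysine 9 of histone H3 at silenced repeats, had 119 and 126. The lowest was Setd7, with 97 and 111. Setdb2 (121 and 127) shared all its promoter peaks with the neighbouring gene Cab39l, so its peaks cannot be assigned to either gene.

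The PRC2 core genes divided by subunit. Ezh2, the main catalytic subunit in dividing cells, and Suz12, the scaffold, each had 135 and 131, and Eed, which reads the methyl mark, had 120 and 123. Ezh1, the alternative catalytic subunit, had 91 and 110, below the other 3 in both replicates. It had the most distal peaks of the 4, as described below.

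The demethylases held both strong and weak promoters. The 18 Kdm genes had a median of 120 and ran from 59.5 to 139. Kdm4a, an eraser of lysine 9 and 36 methylation, had 139 in both replicates, Kdm4b had 136 and 137, and Kdm3a, an eraser of lysine 9 methylation, had 132 in both. The 2 erasers of the PRC2 mark differed from each other: Kdm6a, on the X chromosome, had 124 in both replicates, whereas Kdm6b had 68 and 89. Kdm6b was 2nd lowest in the family, and its promoter was poor in CpG (observed to expected ratio 0.17). Its value rested on the window, since within 2500 bp of a TSS its mean was 128.5 in place of 78.5. The lowest was Kdm5d on the Y chromosome, with 63 and 56, while its X-linked counterpart Kdm5c had 119 and 116. Males and females were pooled, in a ratio not given in the sources used here, and a Y-linked gene is present only in the cells of males. How far that sets the strength of Kdm5d was not tested. All promoter peaks of Kdm1b (125 and 132) lay within 1 kb of a TSS of Tpmt, and those of Kdm4d (111 and 108) within 1 kb of a TSS of Cwc15.

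Among the histone deacetylases, replicate 2 was the higher in all 11, by 2 to 29, as it was in 83.3% of all open genes. Hdac4, a class IIa deacetylase known from growth plate cartilage, had the highest mean of all 79 genes, with 138 and 145 (141.5 ± 4.95, SD, n = 2). Hdac5, of the same class, had 137 and 139, and Hdac1, a catalytic subunit of the main corepressor complexes, had 127 and 137. Hdac2, the partner of Hdac1, had 92 and 117, and Hdac10 had 84 and 113. These were the 2 largest gains from replicate 1 to replicate 2 among the 79 genes, 17 and 21 above the median gain of 8. Kdm5a (114 and 136) and Chd1 (94 and 116) followed, each 14 above it, though the strongest Chd1 peak was a different one in each replicate. Kdm5d was the member that moved farthest the other way, 15 below the median. With 2 replicates these differences measure only the spread between the libraries. Hdac8, on the X chromosome, was the weakest of the family, with 70 and 84. Hdac3 (105 and 119), the catalytic subunit of another corepressor complex, shared every promoter peak with Rell2.

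Of the remodeling genes, the 13 Smarc genes had a median of 119.5. Smarca4, the BRG1 motor of the BAF complexes, had 131 and 139, and the BAF subunits Smarcd2 (132 and 137) and Smarcd1 (130 and 136) were close to it. Smarca2, the alternative motor, had 117 and 120, and Smarca5, the motor of the ISWI complexes, had 103 and 100. Smarca1, the other ISWI motor, stood apart with 41 and 52, at percentile 4.84 of all open protein-coding genes. Its CpG content, described below, was also low (observed to expected ratio 0.29), and it lies on the X chromosome.

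The 10 Chd genes had a median of 111 and a wide range, from 44 to 137. Chd8, whose mutation is known to cause autism in humans, had 137 in both replicates, Chd6 had 137 and 135, and Chd2 had 127 and 139. Chd4, the main motor of the NuRD complex, had 104 and 113. The other 2 NuRD motors were lower, Chd3 with 81 and 96 and Chd5 with 43 and 45, though within 2500 bp of a TSS the mean of Chd3 was 126 in place of 88.5. Chd5 is known mainly from neurons and testis. Chd7, mutated in CHARGE syndrome, had 97 and 107.

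The Dnmt genes had a median strength of 101.5 over the 4 that were open, the lowest of the 8 families, which rests on Dnmt3l: without it the median of the other 3 was 117. Dnmt1, which copies methylation after replication, had 117 and 123. Dnmt3a, a de novo methylase, had 109 and 125, and Dnmt3b, the other, had 79 and 93. Dnmt3l, a cofactor without catalytic activity known from germ cells, had 37 and 42, and all its promoter peaks lay within 1 kb of a TSS of Aire, so even these cannot be assigned to it. Within 2500 bp of a TSS its mean was 78, in place of 39.5. For Dnmt3c the nearest peaks lay 1907 bp from its TSS in replicate 1, with strength 48 (chr2:153694596-153694745), and 1887 bp away in replicate 2, with strength 56. Dnmt3c arose as a copy of Dnmt3b and is similar to it in sequence. Whether reads could be placed uniquely at its start was not tested.

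The open share and the strength were also taken by the CpG content of the promoter. CpG content is given as the ratio of observed to expected CpG within 500 bp of the 5′-most TSS, and a ratio of 0.6 or more was called CpG-rich. Of the 79, 59 were CpG-rich and all 59 were open, beside 97.9% of CpG-rich genes overall. The other 20 were below 0.6 and 19 were open, beside 45.8% of such genes overall. Among open CpG-rich genes the median mean strength was 122.5 for members and 119.5 for all. Among open genes below 0.6 it was 116 for members and 94 for all. The members' median ratio was 0.80, beside 0.55 over all genes. Their annotation also differed: the median member had 7 annotated TSSs spread over 33.3 kb, beside 3 TSSs over 2.82 kb for all genes, which gives a member more places where a peak counts.

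**Figure D2:**
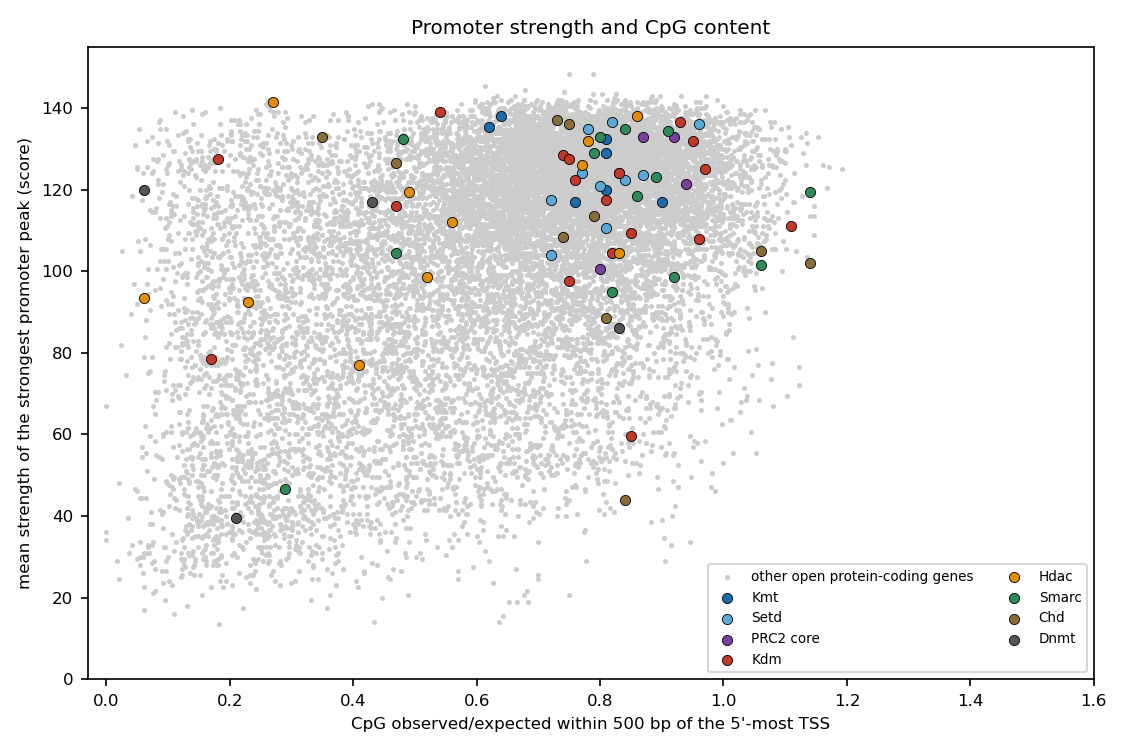
Mean promoter strength over 2 replicates (score, vertical axis) against the CpG observed to expected ratio (horizontal axis) of open protein-coding genes, grey for all others and coloured by family for the 78 open members. Most members lie at ratios over 0.6 and strengths over 100, Smarca1 and Dnmt3l lie low on both axes, and Chd5 and Kdm5d are weak at a ratio over 0.8.

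Several strong promoters stood among the CpG-poor 20. Hdac4 had a ratio of 0.27 at its 5′-most TSS, Dnmt1 one of 0.06 and Chd2 one of 0.35. In all 3 the strongest peak lay at another TSS than the one the ratio was taken at. TSSs of a gene that lay within 2 kb of the next were grouped into a start region, and 70 members had more than 1 region. In Hdac4 the 5′-most region had strengths of 36 and 40, and the region 15.4 kb further in had 138 and 145. The printed Hdac4 peak belongs to that inner start and holds 15 CpG dinucleotides. In Dnmt1 no peak lay at the 5′-most TSS, and the region 6.91 kb further in had 117 and 123. In Chd2 both were open, with 113 and 131 at the 5′-most region and 127 and 139 at the region 4.21 kb further in.

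Most members were open at few of their annotated start regions. Of the 303 regions of those 70 genes, 114 were open in both replicates (37.6%, beside 39.1% over all genes with several regions). The 5′-most region was open in 65 of the 70 (92.9%, beside 75.3%), and 49 of the 233 later regions were open (beside 21.1% over all genes). A peak near an annotated start does not show that the start is used. Later regions were open in 1 of 24 cases in the Kmt family, 2 of 21 in Setd, 2 of 16 in PRC2, 9 of 50 in Kdm, 9 of 27 in Hdac, 11 of 36 in Smarc, 10 of 44 in Chd and 5 of 15 in Dnmt. The Kmt, Setd and PRC2 genes with several regions were all open at the 5′-most and seldom at later ones: Ezh2 was open at 1 of its 8 regions and Kmt2a at 1 of its 3.

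Other members had several open start regions, some of them far into the gene. Kdm2b, known for bringing a Polycomb complex to CpG islands through its CXXC domain, was open at 7 of 9 regions. The strongest was the 7th, 89.5 kb into the gene, with 113 and 119, beside 89 and 106 at the 5′-most. Smarca2 was open at 6 of 14, and its 13th region, 143 kb in, had 117 and 118, close to the 109 and 120 of its 5′-most region. Dnmt3a was open at 4 of 9: its 5′-most region had 91 and 96, and the 6th, 85.7 kb in, had 109 and 125. Chd9 was open at 4 of 7, with strengths of 111 and 119 at the 5′-most and 126 and 127 at the 5th.

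In 5 members the 5′-most region was not open in both replicates and a later one was. Besides Dnmt1 these were Kdm4c, with 125 and 130 at 9.44 kb, and Hdac7, with 91 and 94 at 12.7 kb. Chd5 had a peak at its 5′-most region in replicate 2 alone, of strength 42, and 43 and 45 at 2.94 kb. Hdac9 had a peak of 28 there in replicate 1 alone, and 89 and 98 at 388 kb, where the 4th region lies. Hdac4, Hdac7 and Hdac9 are all class IIa deacetylases, and in each of them the strongest open start was an inner one. In Hdac5, the remaining gene of that class, the 5′-most region was the strongest, with 137 and 139, beside 108 and 102 at the region 11.2 kb further in.

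**Figure D3:**
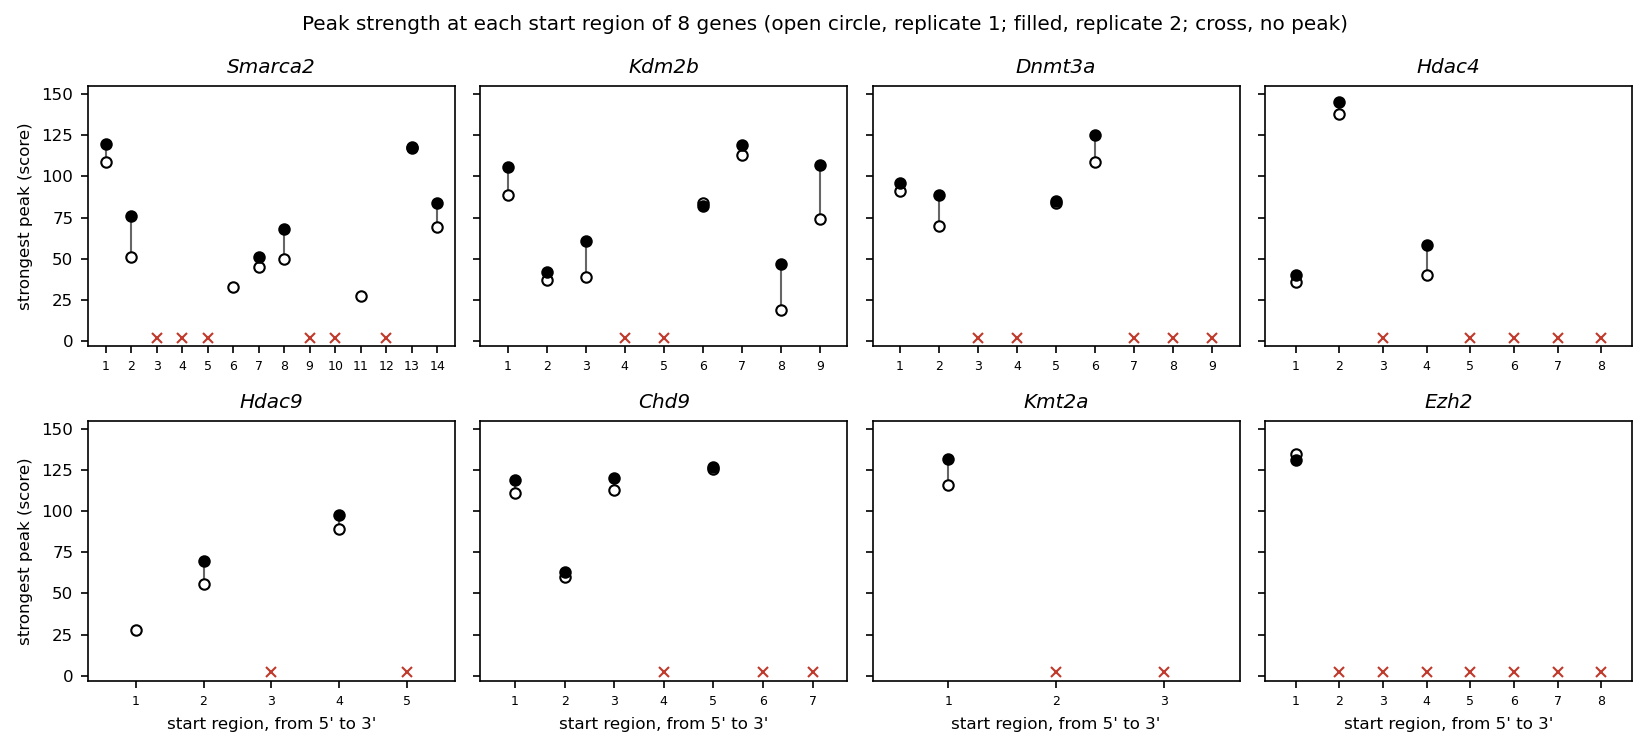
Strongest peak (score, vertical axis) within 1 kb of each start region, numbered from 5′ to 3′ (horizontal axis), for 8 genes chosen after their values were seen. Open circles are replicate 1, filled circles replicate 2 and crosses regions without a peak. Kmt2a and Ezh2 have a peak at the first region alone, and Hdac4, Hdac9, Dnmt3a and Chd9 are strongest at an inner region.

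Around the promoters, the open region had a greater median width than at all open genes. The authors also deposited hotspots, broader stretches of cutting above background. At the strongest promoter peak of the open members the hotspot had a median width of 1203.5 bp in replicate 1 and 1949.5 bp in replicate 2, beside 804 and 1443 bp over all open genes. It was the wider in replicate 2 in 71 of 78 members (91.0%, beside 93.5%). The Kmt genes had the widest median in both replicates, 1966.5 and 2656 bp. The peak itself lay within 100 bp of a TSS in both replicates in 50 members, and over 500 bp away in at least 1 replicate in 8. Neither count was taken over all open genes.

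Distal peaks were those over 1 kb from the TSS of any annotated gene. Within 50 kb of their TSSs, the members had a median of 7 distal peaks shared by the replicates (range 0 to 37), beside 5 over all protein-coding genes. Only Kdm5d had none, which is 1.27% of members beside 12.8% of all genes. Since members have longer spans of TSSs and thus longer windows, the count was also taken per 100 kb of window: the median was 5.27, beside 4.35. Counts of the replicates ranked the open members alike (rho 0.84 over 78 genes, 0.86 over all), and promoter strength and distal count did not rank together (rho -0.04, and 0.00 over all). The distal count ranked weakly with the span of TSSs (rho 0.39, and 0.28 over all). These correlations are descriptions over genes of the same libraries.

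**Figure D4:**
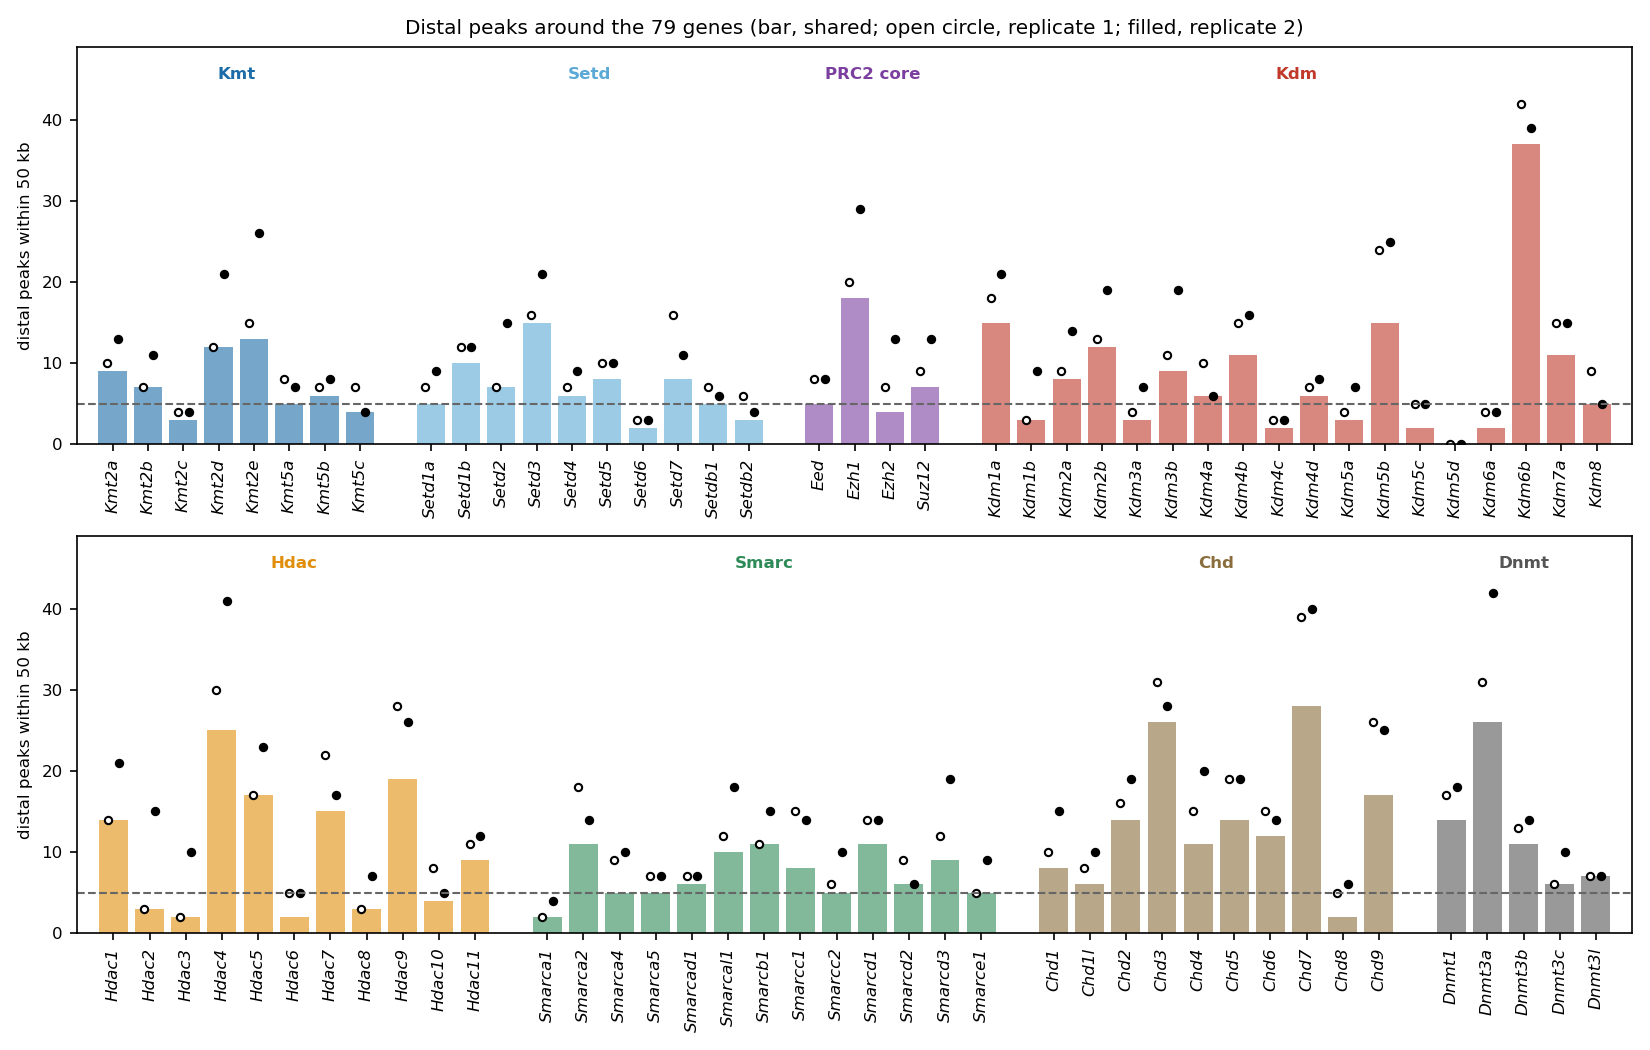
Distal peaks within 50 kb of any TSS (vertical axis) of each of the 79 genes by family. Bars are peaks shared by both replicates, open circles all distal peaks of replicate 1, filled circles those of replicate 2, and the dashed line the median of 5 shared peaks over all protein-coding genes. Kdm6b, with 37, is the highest, followed by Chd7, Chd3, Dnmt3a and Hdac4.

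Median distal counts put the families in another order than median promoter strength, though the families overlapped widely. Counts ran from 2 to 28 in Chd, 6 to 26 in Dnmt, 2 to 25 in Hdac and 0 to 37 in Kdm. The Chd genes, low in strength, had the highest median, 13 shared distal peaks, and the Dnmt genes the next, 11. Dnmt3b and Dnmt3c lie 27.3 kb apart, and all 6 distal peaks of Dnmt3c were also counted for Dnmt3b. Counted for the gene of the nearest TSS alone, the Chd median was 8.5 and the Dnmt median 2, no longer the next highest. The Hdac genes had a median of 9, the Kmt and Setd genes 6.5 each, and the PRC2, Kdm and Smarc genes 6 each. Per 100 kb of window, the Dnmt genes had 9.17 and the Chd genes 6.77. With the 5′-most TSS alone the Hdac median fell to 3 and the Chd median to 6, and the Dnmt median of 8 was then the highest, so the order depends on whether inner starts are counted.

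The 3 strongest of the 690 distal peaks near members are shown next, as extremes and not as typical sites. These 3 held 6, 14 and 7 CpG dinucleotides, beside a median of 2 over the 690. They are given on the + strand of mm10, and capitals again mark motif matches. Distances to a TSS of a member are from the centre of the peak. The first lies at chr11:69417576-69417725, 3975 bp upstream of Kdm6b, the second at chr1:134556976-134557125, 3121 bp upstream of Kdm5b, and the last at chr10:75872936-75873085, 41152 bp from the nearest TSS of Smarcb1 and nearer to that of Mif.
Near Kdm6b: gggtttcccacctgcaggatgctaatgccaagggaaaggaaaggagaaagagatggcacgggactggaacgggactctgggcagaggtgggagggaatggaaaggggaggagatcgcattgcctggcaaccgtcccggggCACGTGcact
Near Kdm5b: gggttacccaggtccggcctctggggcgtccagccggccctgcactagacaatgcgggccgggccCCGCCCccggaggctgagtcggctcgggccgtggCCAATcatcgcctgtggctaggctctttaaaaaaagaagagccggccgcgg
Near Smarcb1: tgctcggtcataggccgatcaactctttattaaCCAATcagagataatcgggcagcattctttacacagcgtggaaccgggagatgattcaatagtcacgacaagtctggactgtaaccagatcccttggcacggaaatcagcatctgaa
Their strengths were 136 and 136, 135 and 134, and 131 and 134, which lay below the strongest promoters, such as Hdac4 (138 and 145) and Kdm4a (139 and 139), and above the median of the open members. The site near Kdm6b held an E-box and had a GC content of 60%. The site near Kdm5b held GGGCGG and CCAAT letters and 14 CpG dinucleotides. The site near Smarcb1 held CCAAT letters and had a GC content of 46.7%.

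Some of these sites may lie at starts that GENCODE M21 does not hold, so they were set against the TSSs of the RefSeq annotation of the same genome. Of the 10 strongest distal peaks near members, 6 lay within 1 kb of a RefSeq TSS. Measured from the edge of the peak, the site near Kdm6b lay 415 bp from a predicted Kdm6b start. The sites near Kdm5b and Smarcb1 lay 3053 and 12026 bp from the nearest RefSeq TSS. Of all 690 distal peaks near members, 71 lay within 1 kb of a RefSeq TSS (10.3%), beside 4.06% of all distal shared peaks.

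Kdm6b had the most distal peaks, 37 shared (42 in replicate 1 and 39 in replicate 2), a count that 99.8% of protein-coding genes did not exceed. They were also among the strongest: 3 of the 5 strongest near any member belonged to it, at 136 and 136, at 134 and 131 (chr11:69418936-69419085, 5335 bp upstream) and at 127 and 130 (chr11:69411236-69411385, in an intron 2365 bp downstream and 6 bp from a predicted RefSeq start). All 3 were stronger than the peaks at its own annotated promoter, of 68 and 89, as GENCODE M21 places it. The second of these sites lay 745 bp from a RefSeq start of Gm51903, and another of the 37, with 105 and 113 (chr11:69416156-69416305), covered a curated RefSeq start of Kdm6b. Sites counted here as distal thus include starts of Kdm6b in another annotation. Of the 37, 10 lay inside Kdm6b and 21 had a Kdm6b TSS as the nearest. Kdm6b and Chd3 lie 34.8 kb apart on chromosome 11, and 25 peaks were counted for both, so the 26 of Chd3 are largely the same sites. Counted for the gene of the nearest TSS alone, Kdm6b kept 21 peaks and Chd3 8.

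Chd7 had 28 shared distal peaks (39 and 40 in the replicates), 17 of them inside the gene. In GENCODE M21 a Chd7 TSS was the nearest to all 28. The strongest, with 126 and 113, lay in an intron at chr4:8799636-8799785. An upstream peak with 114 and 124 (chr4:8647176-8647325) lay 132 bp from a RefSeq start of Gm8273. Another, with 111 and 124 (chr4:8647496-8647645), lay 39 bp from a start of that gene. Dnmt3a had 26 (31 and 42), 14 of them inside the gene, and the strongest was upstream at chr12:3791876-3792025, with 106 and 113. In Chd7 the distal peaks lay in clusters from upstream of the gene to 181.2 kb downstream of the 5′-most TSS, past the gene's end at 177.3 kb. In Dnmt3a those inside the gene lay between 28.04 and 81.74 kb, with 7 upstream of the gene and 5 past its end at 108.4 kb.

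**Figure D5:**
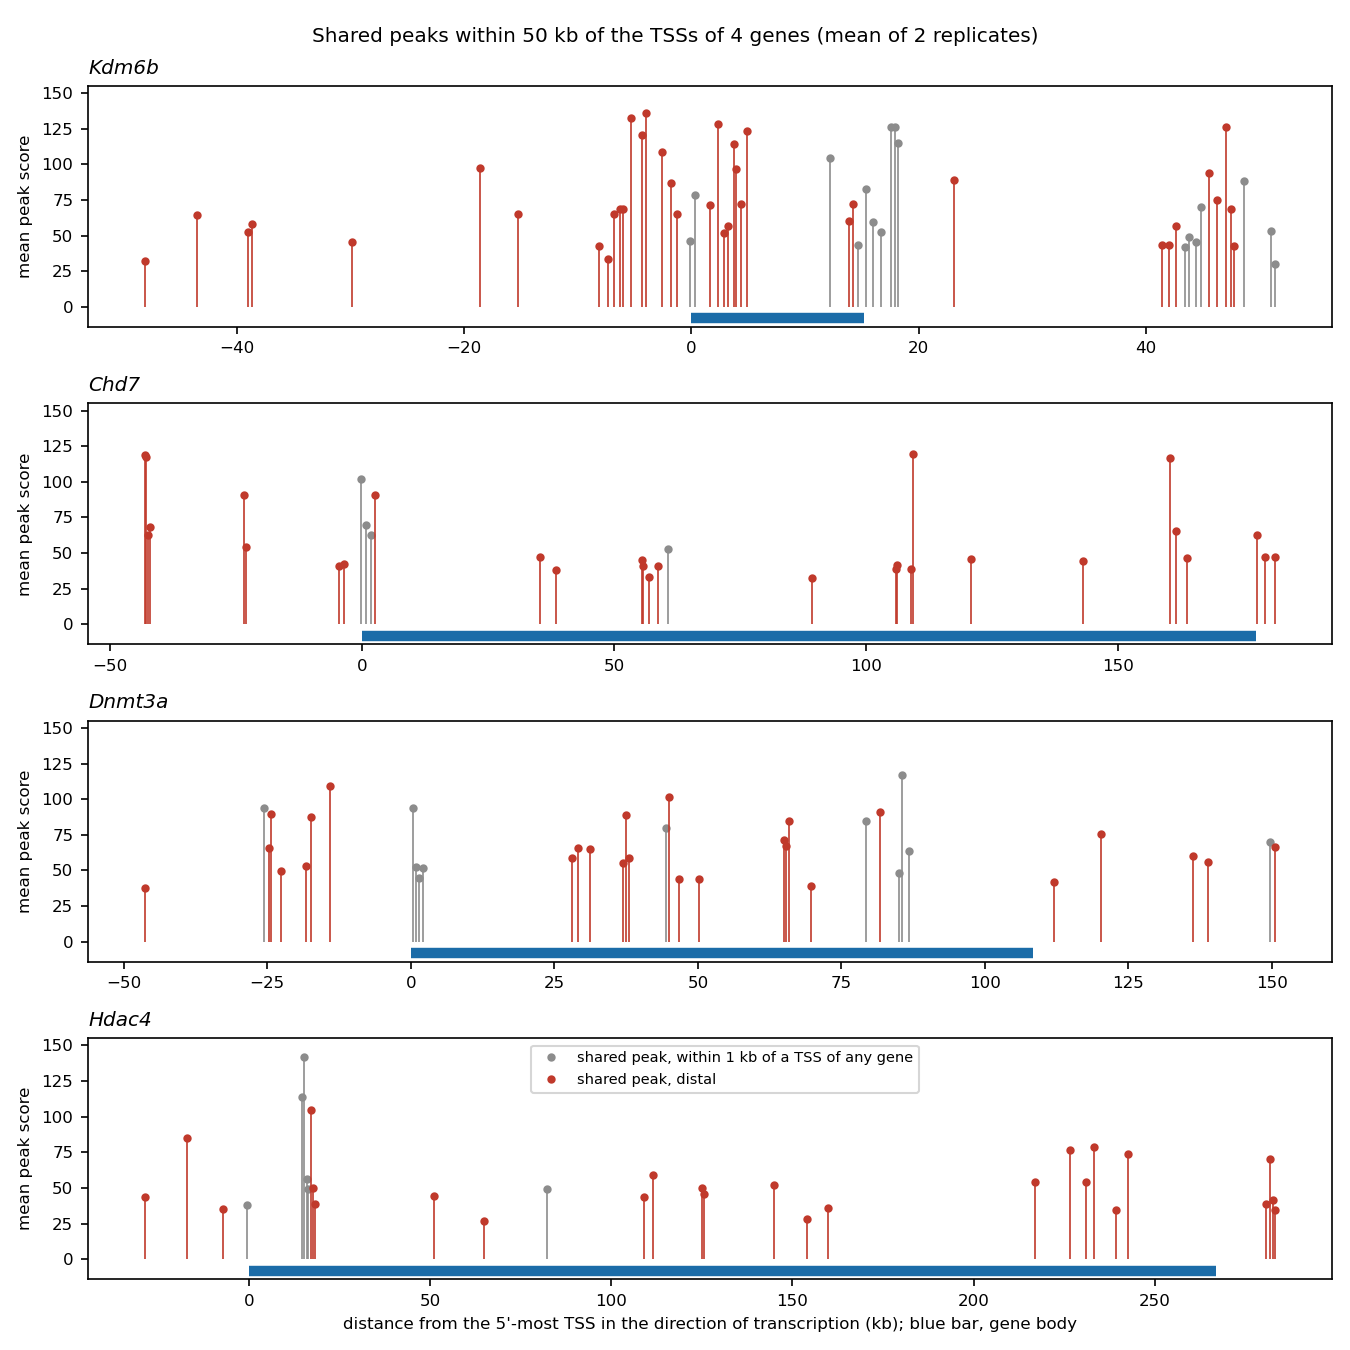
Shared peaks within 50 kb of the TSSs of 4 of the 5 genes with the most distal peaks (Chd3, which shares its sites with Kdm6b, is left out), by distance from the 5′-most TSS in the direction of transcription (kb, horizontal axis) and mean score (vertical axis). Red marks distal peaks, grey peaks within 1 kb of a TSS of any gene, and the blue bar the gene body. Many sites of Kdm6b crowd around its start, and a second cluster lies 41.38 to 47.72 kb downstream, around a start of Chd3. Those of Chd7, Dnmt3a and Hdac4 lie in clusters inside the gene and on both sides of it.

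The class IIa deacetylases had the highest distal counts of their family: 25 at Hdac4, 19 at Hdac9, 17 at Hdac5 and 15 at Hdac7, beside 2 to 14 at the other 7 Hdac genes. This grouping was noticed after the values were seen, and the windows of Hdac4 and Hdac9, whose TSSs span 261 and 480 kb, are long. Per 100 kb of window the counts were 12.7 at Hdac5, 11.2 at Hdac1, 7.82 at Hdac11, 7.05 at Hdac4 and 4.86 at Hdac9, with Hdac7 between Hdac1 and Hdac11. With the 5′-most TSS alone Hdac4 had 6 distal peaks and Hdac9 had 2. At Hdac4 18 of 25 and at Hdac9 17 of 19 lay inside the gene itself, and their own TSS was the nearest to every one. At Hdac1, with 14, none lay inside the gene and none had an Hdac1 TSS as the nearest. Hdac2 had 3 shared, from 3 in replicate 1 and 15 in replicate 2, and Hdac3 had 2.

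In the other families the members with the most distal peaks were Kmt2e (13; 15 and 26 in the replicates) and Kmt2d (12; 12 and 21). A Kmt2e TSS was the nearest to all 13, whereas a Kmt2d TSS was the nearest to 1 of the 12. Setd3 had 15 and Setd1b 10, with their own TSS the nearest to 9 and 5 of them. Ezh1 had 18 (20 and 29), beside 4 to 7 at Ezh2, Eed and Suz12, and 16 of the 18 lay outside the gene. An Ezh1 TSS was the nearest to 8 of the 18. Kdm1a, the amine oxidase demethylase also called LSD1, and Kdm5b, an eraser of lysine 4 methylation, had 15 each, of which 2 each lay inside the gene. Their own TSS was the nearest to 2 of those of Kdm1a and 5 of those of Kdm5b. Smarca2, Smarcb1 and Smarcd1 had 11 each, but all 11 of Smarca2 had its own TSS as the nearest and none of those of Smarcb1 or Smarcd1. Dnmt1 had 14, of which 2 had its own TSS as the nearest.

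The 690 distinct distal peaks near members were somewhat stronger than distal peaks elsewhere, with medians of 49.5 and 62 in the replicates beside 45 and 55 over all 111406. Of the 690, 239 (34.6%) lay in the body of a member, 173 (25.1%) in that of another gene alone and 278 (40.3%) between genes. A TSS of a member was the nearest for 386 (55.9%). The CTCF letters AGGNGGC stood in 24.6% of them, beside 17.4% of all distal shared peaks, and GGGCGG in 10.4%, beside 6.26%, while their median GC content was 52.7%, beside 50%. CCAAT stood in 124 of the 690, beside 17.9% of all.

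The 6 members on the sex chromosomes, Kdm5c, Kdm5d, Kdm6a, Hdac6, Hdac8 and Smarca1, were all open, beside 44.4% of protein-coding genes on X and Y. Their median mean strength was 97.2, beside 120.5 for the open autosomal members and 97.5 for all open genes on X and Y, and their median distal count was 2, beside 8. The median distal count of all genes on X and Y was 1. Kdm6a (124 in both) and Hdac6 (119 and 133) lay near or above the autosomal median, whereas Hdac8, Kdm5d and Smarca1 were the weakest of their families.

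Chromatin genes with other names gave similar counts. Lists of 111 further genes were compared: 25 partners of Polycomb complexes 1 and 2, 10 acetyltransferases, 7 sirtuins, 23 other histone methyltransferases, 11 partners of DNA methylation and 35 other remodeler subunits. Of these, 110 were open in both replicates (99.1%). The exception was Smyd1, a methyltransferase known from heart and skeletal muscle, with a peak of strength 22 in replicate 1 alone, a CpG ratio of 0.19 and 9 distal shared peaks. The median mean strength of the 110 was 123 and the median distal count of the 111 was 6, beside 120 and 7 for the 79 members. By list, the median distal count was 9 for the other histone methyltransferases and the DNA methylation partners, 6 for the Polycomb partners, acetyltransferases and remodeler subunits, and 5 for the sirtuins.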

How the data were processed

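DNase-seq peaks and hotspots of each replicate were analysed on mm10. The authors called both per replicate, per the text files beside the data. The sources used here do not name the aligner, caller or thresholds. The deposited peak value is a score from 2 to 149 on nuclear chromosomes, with no stated definition. The deposited hotspot value is the −log10 of a q-value, and was not used to filter. Repeated peak lines (28 and 47) and peaks off the nuclear chromosomes (174 and 188) were dropped. Python 3.11.15, numpy 2.4.6, scipy 1.17.1, pysam 0.24.0 and matplotlib 3.10.9 were used. Replicate peaks were paired as mutual best overlaps of at least 1 bp, and distance was measured from a peak's nearest edge to the TSS. A member's strength is that of its strongest peak within 1 kb of a TSS.

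No test was made, since 1 group of 2 replicates gives no contrast, and SDs cover only the spread between them. Read depth is unknown, so no counting interval is given. Members, lists, motifs and measures were chosen with earlier results of these data known. The genes named were, in each family, the 3 strongest promoters, the 2 highest distal counts and any member not open. Added were the 5 strongest distal peaks, the 5 largest replicate differences and the members that share all promoter peaks with another gene. Genes named beyond that, the CpG ratio of 0.6, the start regions, hotspot widths, RefSeq check and figure genes were chosen after seeing the data. The search for peaks within 1 kb of a TSS and the pairing of replicate peaks were tested on simulated data, and the count of distal peaks was not. Alternatives changed the TSS window, the TSSs used, the distance, the overlap, the peaks kept, the assignment to genes and the replicates.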

Additional observations from a re-analysis of the deposited data

How the results depend on the processing

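The count of open members was 78 with a TSS window of 500 bp and with either replicate alone, 79 with 2500 bp, which added Dnmt3c, and 76 with the stronger 50% of peaks, which lost Chd5 and Dnmt3l. It was 73 with the 5′-most TSS alone, which lost Kdm4c, Hdac7, Hdac9, Chd5 and Dnmt1, and 73 of 74 without the 5 members that share every promoter peak. All genes ranged from 65.3% to 73.3% open over these settings. No paired analysis was possible because there is 1 group.

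The median distal count per member was 7 (all genes 5). It was 4 within 25 kb (all genes 2), 14 within 100 kb (10), 4 with the stronger 50% of peaks (3), 3 when a peak counts for the gene of the nearest TSS alone (1), 9 without replicate 2 (7) and 12 without replicate 1 (8). It was 5 with the 5′-most TSS (4), 7 with an overlap of at least 75 bp (5), and 6 without sites within 1 kb of RefSeq TSSs (5), a setting chosen after seeing the data.

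Family medians, in the order Kmt, Setd, PRC2, Kdm, Hdac, Smarc, Chd and Dnmt, were 6.5, 6.5, 6, 6, 9, 6, 13 and 11. Within 25 kb they were 2.5, 3.5, 3.5, 2.5, 6, 4, 7.5 and 4. Within 100 kb they were 14, 11.5, 11, 14.5, 18, 13, 18.5 and 16. With the 5′-most TSS they were 4.5, 5, 4, 5, 3, 5, 6 and 8. With an overlap of 75 bp they were 6, 6.5, 5, 5.5, 9, 6, 12.5 and 10. With the stronger 50% of peaks they were 2, 3, 3, 3.5, 6, 3, 8 and 6. With the nearest TSS they were 1.5, 4, 2, 2, 3, 3, 8.5 and 2. Without replicate 1 they were 9.5, 9.5, 13, 8.5, 15, 10, 19 and 14, and without replicate 2 they were 7.5, 7, 8.5, 9, 11, 9, 15.5 and 13. Chd was highest in each of these settings except the 5′-most TSS, where Dnmt was.

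The member with the most distal peaks was Kdm6b within 25 kb (24), with the 5′-most TSS (37), 75 bp overlap (34), the stronger 50% of peaks (28) and replicate 1 alone (42). It was Chd3 within 100 kb (48), Chd7 by nearest TSS (28) and Dnmt3a with replicate 2 alone (42). The cause of these changes was not tested.

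Promoter strengths of named genes moved by more than the replicates' spread, over the TSS windows, the TSSs used and the replicates left out, in 13 cases and stayed within it in 210. Leaving out a replicate can never move the mean by more than the SD, so those cases were bound to stay within it. The 13 were all under another window or the 5′-most TSS. Among cases with a value, the greatest fall was Hdac4, from 141.5 to 38 with the 5′-most TSS. Hdac9 and Dnmt1 were not open in both replicates with the 5′-most TSS, so they had no value there and are not in these counts.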
